A study of Mus musculus with 12 samples.

Results

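Heat-shock proteins and chaperonins are the proteins that fold other proteins, and their transcripts were followed here in mouse round spermatids (RS), the haploid germ cells that arise from meiosis before the nucleus elongates. Members were taken by symbol: every gene of the table whose name begins with Hsp or Dnaj, or is Cct2 to Cct8 with any suffix, together with *Tcp1*, without *Hspg2* (a matrix proteoglycan) and without symbols marked as pseudogenes. The rule found 84 members among 28643 symbols, and left out 9 symbols that share these name stems. By name the members fell into HSP90 (3), HSP70 (11), HSP110 (3), small HSPs (8), the mitochondrial chaperonin (2), the cytosolic chaperonin (10), J proteins of class A (4), B (13) and C (28), and 2 others.

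RS were sorted by flow cytometry from 8-week-old male mice, with cycloheximide present throughout to hold ribosomes on their mRNAs. The control mice were Igf2bp3+/- and the knockout mice Igf2bp3-/-, carrying a frameshift made with Cas9 in the gene of an m6A-binding protein, so that both genotypes carried at least one mutant allele and no library came from Igf2bp3+/+ mice. Fertility varied between knockout males, and the paper states that those with impaired fertility were chosen for the experiments that include these libraries. Each extract gave an input for RNA-seq and, after a sucrose gradient, a fraction of mRNAs bound by 4 or more ribosomes for ribosome nascent-chain complex sequencing (RNC-seq), with 3 replicates for each genotype and assay and 12 libraries in all. The values are FPKM, a read density per transcript length and library size, without read counts, so depth is unknown, and p-values measure only the spread between these samples.

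HSP70 proteins bind exposed stretches of unfolded proteins in cycles of ATP hydrolysis. J proteins bring them their clients and start the hydrolysis, HSP110 and other exchange factors release the nucleotide, and HSP90 completes the folding of kinases and receptors. The cytosolic chaperonin, called TRiC or CCT, is a double ring of related subunits that folds actin and tubulin, and the mitochondrial chaperonin is built from HSP60 (*Hspd1*) and HSP10 (*Hspe1*). In the male germ line some of these jobs are done by testis-enriched paralogs, of which *Hspa2*, *Hspa1l* and *Hspa4l* are the best known, while *Hspa1a* and *Hspa1b* are the classical genes induced by heat.

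The 6 round spermatid markers checked were all present, with a summed level of 644 to 1022 FPKM over the RNA-seq libraries, against 3.11 to 4.09 FPKM for 6 spermatogonial markers. For 7 spermatocyte markers the summed level was 82.4 to 122 FPKM in RNA-seq and 87.1 to 204 FPKM in RNC-seq. For 6 elongating spermatid markers (*Tnp1*, *Tnp2*, *Prm1*, *Prm2*, *Odf1* and *Smcp*) it was higher than for the round spermatid markers. It was 8421 to 10867 FPKM in Igf2bp3+/- and 9444 to 9561 FPKM in Igf2bp3-/- RNA-seq. In RNC-seq it was 11495 to 14148 and 10389 to 21235 FPKM. The part of spermatocyte or elongating spermatid RNA in the values of the members was not tested. The summed level of 7 Leydig cell markers was higher in Igf2bp3-/- (48.6 to 55.0 FPKM in RNA-seq) than in Igf2bp3+/- (15.4 to 22.6 FPKM), as in RNC-seq (51.5 to 103 against 6.75 to 14.3 FPKM), and 4 of the 7 passed the limit in RNA-seq and 1 in RNC-seq. In RNA-seq the summed levels of Sertoli (7.13 to 7.95 against 3.45 to 4.32 FPKM), macrophage (7.89 to 9.09 against 4.78 to 6.002 FPKM) and blood markers (10.3 to 12.7 against 5.52 to 6.08 FPKM) were also higher in Igf2bp3-/-, with 1 gene of each list past the limit. Of the Sertoli markers, *Clu* was the one that passed (1.08 ± 0.14 in log2(FPKM + 0.1), adjusted p from limma = 0.0201), and *Sox9* and *Wt1* were at 0.185 FPKM or below in each RNA-seq library. *Igf2bp3* RNA itself stood at 33.4 to 38.6 FPKM in the Igf2bp3+/- and 31.4 to 32.5 FPKM in the Igf2bp3-/- RNA-seq libraries, groups that did not overlap. In RNC-seq it stood at 31.4 to 43.0 FPKM and 40.6 to 43.1 FPKM, which overlapped, so the RNA level gives no check of the edit itself. One transcript, CT010467.1, took 5.68 to 19.4% of the summed FPKM of a library, and every FPKM is relative to its library. In these bulk samples, fewer cells of a type and less RNA per cell cannot be told apart.

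Promoter windows of 69 members were in the RefSeq table used (GRCm38.p6, 250 bases before to 50 bases after each start site). Windows are shown for members with an element of a stress response, a choice made because some of them return in the polysome results that follow. A link between an element and the polysome results was not tested. The ER stress response element, CCAAT and CCACG with 9 bases between them on either strand, was found in 3 of 69 members (4.35%), against 37 of 27025 genes (0.137%). These 3 were *Hspa5*, *Hsp90b1* and *Dnajc3*, which encode BiP, GRP94 and the HSP70 co-chaperone P58IPK of the endoplasmic reticulum. Capitals mark the element in windows of 30 bases read along the gene's strand, 65 bases upstream of the start site in *Hspa5* (chr2:34772020-34772049, plus strand), 212 and 107 bases upstream in *Hsp90b1* (chr10:86705632-86705661 and chr10:86705527-86705556, minus strand), the latter in reverse orientation, and 105 bases upstream in *Dnajc3* (chr14:118937822-118937851, plus strand).
Hspa5: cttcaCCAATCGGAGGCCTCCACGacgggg
Hsp90b1, distal: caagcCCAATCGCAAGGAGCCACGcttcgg
Hsp90b1, proximal: gagtgCGTGGTGAGGCACGATTGGtgagtt
Dnajc3: cacaaCCAATCAGCGCCAACCACGacccgg

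A heat-shock element of 3 units, which alternate between GAA and TTC with 2 bases between units and were read on both strands, was found in 4 members (5.80%), *Dnajb6*, *Hspd1*, *Hspe1* and *Hsph1*, against 179 genes (0.662%). With 2 units, GAANNTTC or TTCNNGAA, which the longer motif contains, the counts were 20 members (29.0%) and 4587 genes (17.0%), and *Hspa1a*, *Hspa1b* and *Hspb1* were among the 20. *Hspd1* and *Hspe1* are neighbours that are read away from each other, and their elements lie in windows that share bases, at chr1:55088050-55088079 (minus strand) and chr1:55088056-55088085 (plus strand). That of *Dnajb6* is at chr5:29735844-29735873 (plus strand). The element of *Hsph1* begins 15 or 36 bases after a start site, depending on which start is used, and is not printed.
Hspd1: gccttccgGAAGGTTCTAGAAcggaccgtg
Hspe1: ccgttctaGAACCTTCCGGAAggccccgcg
Dnajb6: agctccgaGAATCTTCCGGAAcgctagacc
The cAMP response element TGACGTCA was in 1 member, *Dnajc27* (1.45%), against 2.03% of genes, TATAAA in 5.80% against 15.7%, and CCAAT in 43.5% against 41.1%, on either strand. A match describes letters in a window and does not show that a factor binds there.

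The chaperone transcripts of RS were unevenly distributed. A mean RNA-seq level above 100 FPKM was reached by 22 members (26.2%), against 3.48% of all genes, and the median member stood at 24.2 FPKM against 0.549 FPKM for all genes. The members together took 1.70 to 1.90% of the summed FPKM in RNA-seq and 1.09 to 1.33% in RNC-seq. The 6 most abundant members, *Dnajb3*, *Tcp1*, *Hspb9*, *Hsp90aa1*, *Hspa2* and *Cct7*, held 49.7% of the summed mean level of all 84, whereas *Hspa1b*, *Hspb2*, *Hspb3* and *Hspb8* stayed at or below a mean of 0.1 FPKM and were left out of the tests, so that 80 members were tested in each comparison.

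**Figure D1:**
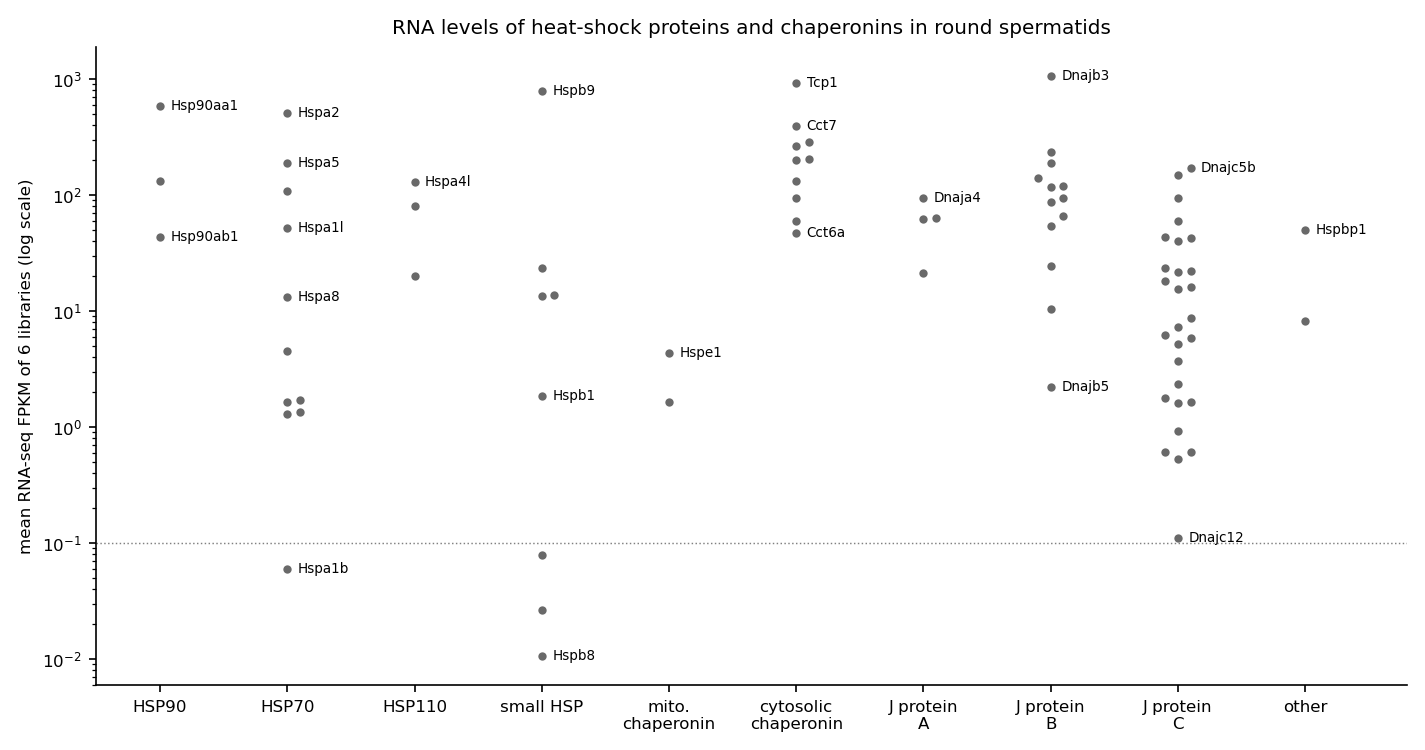
Mean RNA-seq FPKM of each of the 84 members over the 6 RNA-seq libraries (log scale), grouped by family, with 1 point per gene and the filter of 0.1 FPKM as a dotted line. The members ranged from 1064 FPKM for Dnajb3 down to 0.0106 FPKM for Hspb8.

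Among the HSP70s, *Hspa2*, which is needed for meiosis in males, was the most abundant. It measured 456, 436 and 529 FPKM in the Igf2bp3+/- and 492, 573 and 567 FPKM in the Igf2bp3-/- RNA-seq libraries. *Hspa8*, the constitutive HSP70 of somatic cells, measured 11.3, 10.6 and 12.8 FPKM in Igf2bp3+/- and 12.8, 15.2 and 17.0 FPKM in Igf2bp3-/-. The ratio of *Hspa2* to *Hspa8* was thus 33.3 to 41.2 over the 6 RNA-seq libraries and 55.6 to 102 over the RNC-seq libraries, with the reservation that *Hspa8* has 4 near-identical pseudogene copies to which its reads may have been assigned.

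*Hspa1l*, *Hspa1a* and *Hspa1b* lie next to each other on chromosome 17 (GRCm38, 34956436 to 34979285). *Hspa1l*, the testis gene of the cluster, measured 52.7, 54.1 and 55.6 FPKM in Igf2bp3+/- and 47.0, 52.7 and 51.2 FPKM in Igf2bp3-/-. *Hspa1a* measured 1.90, 1.76 and 2.04 FPKM and 1.12, 1.24 and 1.78 FPKM in the same order. *Hspa1b* lay between 0.0327 and 0.0971 FPKM in RNA-seq and was listed at 0 in 1 RNC-seq library. Both heat-inducible genes were therefore far below their testis neighbour in every library, but they are near-identical copies of each other, so their split is uncertain, and 71.9% of the exonic bases of *Hspa1l* overlap *Gm10501* on the opposite strand, whose reads cannot be told apart if strand was not used.

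The ER chaperone *Hspa5* (188 FPKM on average) and the mitochondrial HSP70 *Hspa9* (108 FPKM) were the next most abundant HSP70s. *Hspa12a*, *Hspa12b*, *Hspa13* and *Hspa14* had means of 1.30 to 4.54 FPKM. The range within the HSP70s was thus 8568-fold between the highest and the lowest mean.

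In the HSP110 group of nucleotide exchange factors, *Hspa4l*, a gene needed for normal sperm numbers, measured 142, 130 and 123 FPKM in Igf2bp3+/- and 127, 124 and 135 FPKM in Igf2bp3-/- RNA-seq. Its somatic paralog *Hspa4* averaged 80.5 FPKM and the heat-inducible *Hsph1* 20.2 FPKM. *Hspa4l* exceeded *Hspa4* in each of the 12 libraries, by 1.29 to 2.16-fold.

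Of the HSP90s, *Hsp90aa1* (617, 612 and 547 FPKM in Igf2bp3+/-, 591, 579 and 607 FPKM in Igf2bp3-/- RNA-seq) stood above *Hsp90ab1* (38.8, 42.0 and 38.1 FPKM, then 42.7, 49.1 and 50.4 FPKM). The inducible form exceeded the constitutive form in every library, by 11.8 to 15.9-fold in RNA-seq and 6.17 to 8.50-fold in RNC-seq. *Hsp90aa1* has 2 near-identical pseudogenes, *Gm12346* and *Gm5844*. *Hsp90b1*, the HSP90 of the ER, averaged 131 FPKM.

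**Figure D2:**
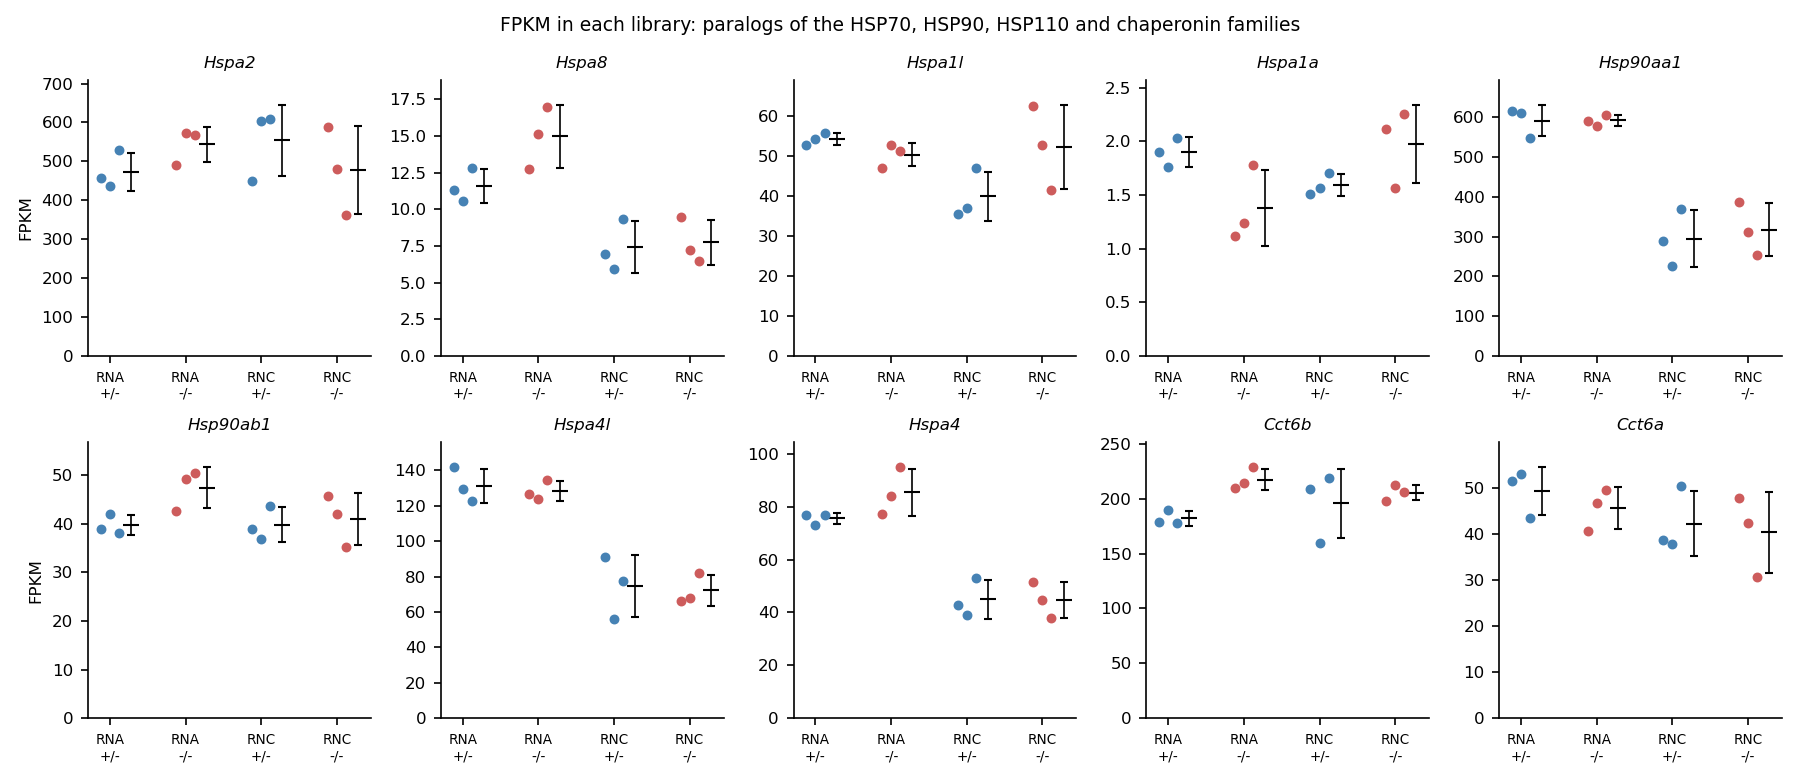
FPKM of testis-enriched and somatic paralogs in each of the 12 libraries, with blue points for Igf2bp3+/-, red points for Igf2bp3-/-, and black marks for the mean and SD of 3 replicates; each panel has its own axis. Hspa2 reached 362 to 608 FPKM where Hspa8 did not pass 17.0 FPKM, and the RNC-seq libraries of both genotypes lay below the RNA-seq libraries for Hsp90aa1 but overlapped them for Hsp90ab1.

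The cytosolic chaperonin was expressed as a whole. All 10 of its members had a mean of at least 47.5 FPKM, and their sum was 2377 to 2480 FPKM in Igf2bp3+/- and 2595 to 2976 FPKM in Igf2bp3-/- RNA-seq. *Tcp1* (subunit 1) measured 853, 886 and 862 FPKM and 942, 1021 and 1031 FPKM, *Cct7* averaged 392 FPKM and *Cct5* 287 FPKM. The mRNA levels of the 10 members covered a 19.6-fold range, with *Cct6a* at the low end. For subunit 6, the testis form *Cct6b* exceeded *Cct6a* by 3.47 to 5.16-fold in RNA-seq and by 4.13 to 6.71-fold in RNC-seq. Reads over 14.2% of the exonic bases of *Tcp1* may also come from genes on the opposite strand.

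The mitochondrial chaperonin was far lower. *Hspe1* averaged 4.35 FPKM and *Hspd1* 1.66 FPKM, and *Hspd1* has a near-identical pseudogene. Small HSPs, which hold unfolding proteins without using ATP, were represented almost by *Hspb9* alone, a testis-specific member at 728, 775 and 630 FPKM in Igf2bp3+/- and 821, 898 and 858 FPKM in Igf2bp3-/-. *Hspb7*, named for its cardiovascular expression, averaged 23.6 FPKM and *Hspb11*, also known as the ciliary transport protein IFT25, 13.8 FPKM. *Hspb8* was listed at 0 in 10 of the 12 libraries, and *Hspb2* in 10.

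J proteins are the largest family and held the most abundant member. *Dnajb3* was the most abundant of all 84 members and the 25th most abundant of all genes, at 1061, 1022 and 903 FPKM in Igf2bp3+/- and 1055, 1100 and 1241 FPKM in Igf2bp3-/- RNA-seq. *Dnajb6*, a suppressor of protein aggregation, averaged 236 FPKM and *Dnajb8*, its close relative, 188 FPKM, although a gene read in the opposite direction covers 37.2% of the exonic bases of *Dnajb8*. In class A, *Dnaja4* averaged 93.7 FPKM with 44.1% of its bases overlapped by *Wdr61*, followed by *Dnaja2* and *Dnaja1* at 63.0 and 62.4 FPKM. In class C, *Dnajc5b*, the testis paralog of the synaptic vesicle protein CSPα, averaged 172 FPKM and exceeded *Dnajc5* by 59.7 to 140-fold in RNA-seq, and *Dnajc7* and the ribosome-bound *Dnajc2* averaged 150 and 94.7 FPKM. The HSP70-binding protein *Hspbp1* averaged 50.2 FPKM and *Hspbap1* 8.21 FPKM.

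Which chaperone mRNAs were on polysomes was asked by comparing RNC-seq with RNA-seq within a genotype, called polysome loading here and given as the difference in log2(FPKM + 0.1). Because FPKM is relative within a library, a value of 0 means equal FPKM in both assays, not equal amounts. The summed FPKM of a library was 460438 to 510110 in RNA-seq and 555906 to 625109 in RNC-seq. Values are therefore to be read against the median of all 18414 genes tested. In Igf2bp3+/- the median of the 80 members was -0.26 and that of all genes -0.10. With limma and Benjamini-Hochberg adjustment over all genes, 10 members (12.5%) were higher in RNC-seq (background 18.6% of all genes) and 27 (33.8%) lower (background 25.2%). In Igf2bp3-/-, 6 members (7.5%) were higher (background 12.5%) and 20 (25%) lower (background 14%), with a median of -0.24 against -0.04. The 2 loading contrasts compare different libraries, but they came from the same fit over all 12 libraries. That fit shares its estimate of the spread, so the calls of the 2 genotypes are not independent. Of the members lower in Igf2bp3+/-, 18 of 27 (66.7%) were also lower in Igf2bp3-/-, which is 90.0% of the latter's 20, and 5 members were higher in both (50.0% of the 10 and 83.3% of the 6). Over all genes the shared calls were 50.3% and 90.4% of the lower lists and 57.4% and 85.3% of the higher lists.

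These splits depend on scaling. In Igf2bp3+/-, 73.0% of the called members were lower as deposited, 57.9% after the libraries were centred on their medians, and 87.5% when CT010467.1 was removed and the libraries rescaled, which moved the median of all genes from -0.10 to -0.29. In Igf2bp3-/- the lower share was 76.9% as deposited and 94.9% after that rescaling, which moved the median of all genes from -0.04 to -0.23. The order of members within a library is not affected by centring or rescaling.

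**Figure D3:**
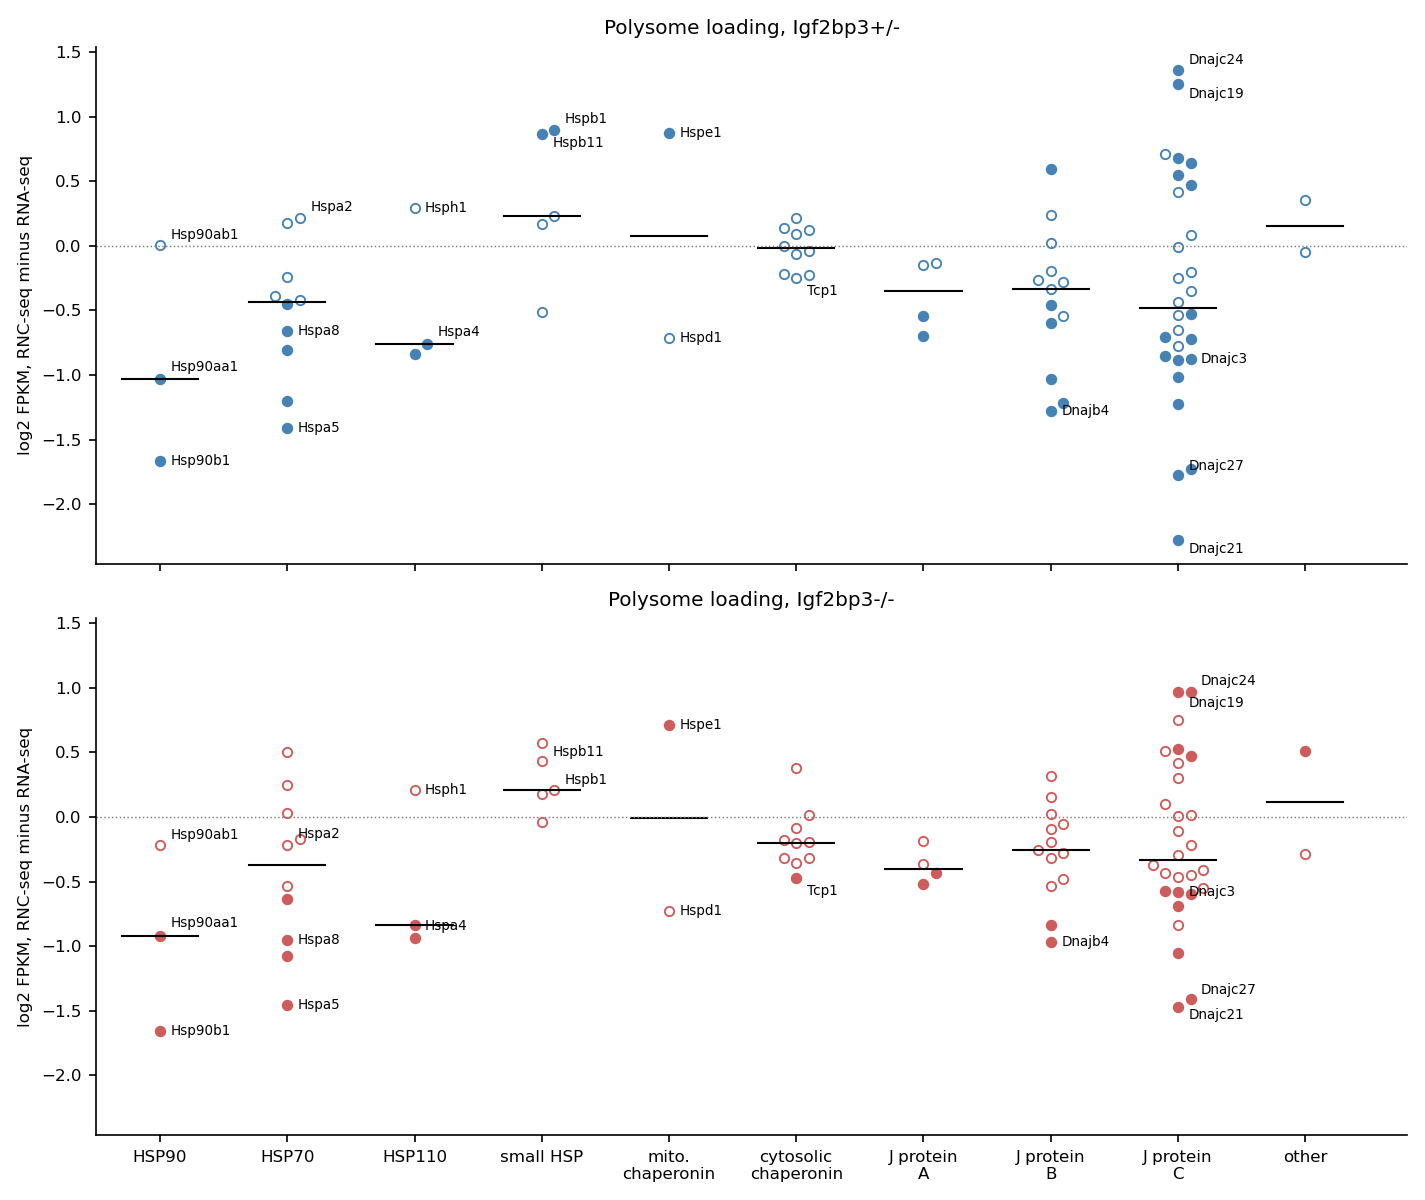
Polysome loading, the difference in log2(FPKM + 0.1) between RNC-seq and RNA-seq, of the 80 tested members in Igf2bp3+/- (top) and Igf2bp3-/- (bottom), grouped by family. Filled points had an adjusted p below 0.05 in limma, open points did not, and bars are family medians; HSP90 and HSP110 lay low with medians of -1.03 and -0.76 in Igf2bp3+/-, and the cytosolic chaperonin close to 0 with -0.02.

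The ER chaperones *Hsp90b1* and *Hspa5* were among the members lowest on polysomes. *Hsp90b1* (GRP94) measured 149, 137 and 120 FPKM in RNA-seq and 43.3, 33.5 and 53.0 FPKM in RNC-seq of Igf2bp3+/-. *Hspa5* (BiP) measured 207, 178 and 185 FPKM in RNA-seq and 72.0, 55.1 and 90.7 FPKM in RNC-seq. For both genes the RNC-seq libraries all lay below the RNA-seq libraries, with differences of -1.66 ± 0.18 (SE, n = 3 against 3, adjusted p from limma = 2.23e-05) for *Hsp90b1* and -1.41 ± 0.19 (adjusted p from limma = 8.17e-05) for *Hspa5*. In Igf2bp3-/- they were -1.66 ± 0.18 (adjusted p from limma = 9.54e-05) and -1.46 ± 0.19 (adjusted p from limma = 0.000221).

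*Dnajc3*, the third member with an ER stress response element, was also lower, by -0.87 ± 0.19 in Igf2bp3+/- (adjusted p from limma = 0.00265) and -0.58 ± 0.19 in Igf2bp3-/- (adjusted p from limma = 0.0408), at a mean of only 2.35 FPKM in RNA-seq. Its call in Igf2bp3-/- was lost in 14 of 18 fits that left out a library or a replicate. *Hspa5*, *Hsp90b1*, *Dnajc3*, *Dnajb9*, *Dnajb11*, *Dnajc1*, *Dnajc10* and *Hspa13* are known as ER residents, a set assembled after their values were seen and given without a test. Of these 8, 6 were lower in Igf2bp3+/- and 4 in Igf2bp3-/-, against backgrounds of 25.2% and 14% lower, none was higher, and their median was -0.74 and -0.56, against -0.10 and -0.04 for all genes. *Dnajb9* and *Hspa13* were called in neither genotype, and *Dnajb11* and *Dnajc1* only in Igf2bp3+/-. The Igf2bp3+/- calls of *Dnajb11*, *Dnajc1* and *Dnajc10* were lost in 3, 2 and 2 of 18 fits that left out a library or a replicate. That of *Dnajc10* in Igf2bp3-/- was lost in 2. *Dnajb9* (ERdj4), the inducible J protein of the ER, was the only member of the set above 0 in Igf2bp3+/-. It stood at 0.02 and -0.05, with 55.8, 53.6 and 53.7 FPKM in RNA-seq and 63.3, 47.0 and 56.7 FPKM in RNC-seq of Igf2bp3+/-. The set is not complete, and its counts depend on which members were picked. Of J proteins outside it that may also lie in the ER, *Dnajc18* was higher in both genotypes and *Dnajb14* lower in both. *Dnajc14* was lower in Igf2bp3+/- only, and *Dnajb12* was called in neither.

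Cytosolic HSP90 and HSP110 diverged between paralogs. *Hsp90aa1*, at 547 to 617 FPKM in RNA-seq, measured 289, 227 and 369 FPKM in RNC-seq of Igf2bp3+/-, a difference of -1.03 ± 0.18 (adjusted p from limma = 0.000585), and was lower in Igf2bp3-/- as well (-0.92 ± 0.18, adjusted p from limma = 0.00286). *Hsp90ab1* was at 38.9, 36.8 and 43.7 FPKM in RNC-seq, with differences of 0.00 ± 0.14 and -0.22 ± 0.14 that did not pass. *Hspa4l* was lower in both genotypes (-0.84 ± 0.17 and -0.83 ± 0.17, adjusted p from limma = 0.00127 and 0.00287), as was *Hspa4* (-0.76 ± 0.15 and -0.94 ± 0.15, adjusted p from limma = 0.00145 and 0.000938). *Hsph1* stood at 0.29 and 0.21 and did not pass, and the latter was -0.0076 after removal of CT010467.1. The calls of *Hsp90aa1*, *Hsp90b1*, *Hspa5*, *Hspa4* and *Hspa4l* were kept in both genotypes in all 18 fits that left out a library or a replicate.

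Within the HSP70s, 5 of 10 tested members were lower in Igf2bp3+/- (background 25.2%) and 4 in Igf2bp3-/- (background 14%), and none was higher (backgrounds 18.6% and 12.5%). *Hspa2* measured 449, 604 and 608 FPKM in RNC-seq of Igf2bp3+/- and 588, 481 and 362 FPKM in that of Igf2bp3-/-, which overlapped its RNA-seq values, with differences of 0.22 ± 0.18 and -0.21 ± 0.18, the former at -0.17 with quantile normalization. *Hspa9* was lower in both genotypes (-0.80 ± 0.14 and -0.64 ± 0.14), and *Hspa12a* too (-1.20 ± 0.28 and -1.08 ± 0.28), with the Igf2bp3-/- calls lost in 1 and 4 of 18 fits that left out a library or a replicate. *Hspa8* was at 6.96, 5.90 and 9.37 FPKM in RNC-seq of Igf2bp3+/-, below each RNA-seq value (-0.66 ± 0.20, adjusted p from limma = 0.0161, lost in 5 of 18 fits with a library or a replicate left out), and at 9.48, 7.26 and 6.51 FPKM in Igf2bp3-/- (-0.95 ± 0.20, adjusted p from limma = 0.00397, lost in 1 of those 18 fits). *Hspa1l* was lower in Igf2bp3+/- (-0.45 ± 0.16, adjusted p from limma = 0.0351), a call lost in 8 of 18 fits with a library or a replicate left out, and stood at 0.03 ± 0.16 in Igf2bp3-/-.

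The 10 members of the cytosolic chaperonin lay between -0.25 and 0.22 in Igf2bp3+/- and between -0.48 and 0.38 in Igf2bp3-/-. The upper ends were those of *Cct8l1*, and the other 9 reached at most 0.14 and 0.01. In Igf2bp3-/- 8 of the 10 were below 0. There 3 were lower at an unadjusted p below 0.05 with limma (background 20.4%) and 1 higher (background 18.3%). Libraries were apart for 4 that were lower (background 21.5%) and 1 that was higher (background 19.2%). None passed in Igf2bp3+/- with limma, where none also had an unadjusted p below 0.05, and 1, *Tcp1*, passed in Igf2bp3-/- (-0.48 ± 0.15, adjusted p from limma = 0.0341), a call lost in 11 of 18 fits with a library or a replicate left out. The group's position is set by scaling: after removal of CT010467.1, 3 members were lower in Igf2bp3+/- and 6 in Igf2bp3-/- (5 and 7 with quantile normalization). Its median in Igf2bp3+/- went from -0.02 to -0.24 with that removal, while centring took it to 0.15. The removal also took the medians of all genes to -0.29 in Igf2bp3+/- and -0.23 in Igf2bp3-/-. Shares of all genes called under these scalings are not given, so the backgrounds above do not apply to these counts. The subunits shared an order of replicates in Igf2bp3+/- RNC-seq and Igf2bp3-/- RNA-seq, but less so in the other groups. Igf2bp3+/- RNC-seq replicate 2 was the lowest of its 3 replicates for all 10 members and replicate 3 the highest for all 10, whereas over all genes replicate 2 was lowest for 48.7% and replicate 3 highest for 35.0%. In Igf2bp3-/- RNA-seq, replicate 1 was the lowest for all 10 (39.7% of all genes) and replicate 3 the highest for 9 (48.6%). By contrast, in Igf2bp3+/- RNA-seq replicate 2 was the highest for 7 (37.3%) and replicate 1 the lowest for 5 (29.1%). Among the Igf2bp3-/- RNC-seq libraries, replicate 1 was the highest for 6 (40.1%), and replicates 2 and 3 were the lowest for 4 each (36.7% and 38.7%).

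At the other end stood members that were higher in RNC-seq. *Dnajc24*, a J protein of diphthamide synthesis, measured 6.71, 6.83 and 7.24 FPKM in RNA-seq and 19.8, 15.8 and 18.3 FPKM in RNC-seq of Igf2bp3+/-, a difference of 1.36 ± 0.20 (adjusted p from limma = 0.000177). *Dnajc19*, of the mitochondrial import motor, measured 17.9, 14.1 and 9.95 FPKM and 41.5, 30.9 and 26.9 FPKM (1.25 ± 0.27, adjusted p from limma = 0.00203). Both were higher in Igf2bp3-/- too, by 0.97 ± 0.20 and 0.97 ± 0.27, calls lost in 1 and 6 of 18 fits with a library or a replicate left out. *Hspb1* (0.90 ± 0.27), *Hspe1* (0.87 ± 0.22) and *Hspb11* (0.86 ± 0.26) followed in Igf2bp3+/-, calls lost in 3, 1 and 4 of those 18 fits. Of these 3 only *Hspe1* passed in Igf2bp3-/- (0.71 ± 0.22, adjusted p from limma = 0.0316), and there it was lost in 7 of 18 fits with a library or a replicate left out. *Hspe1* and *Hspd1*, whose products form a single machine and whose heat-shock elements share bases, stood at 0.87 ± 0.22 and -0.71 ± 0.30 in Igf2bp3+/-, the latter not past the limit.

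Several J proteins were low on polysomes too. *Dnajc21*, a factor of ribosome biogenesis, measured 7.05, 6.62 and 5.60 FPKM in RNA-seq and 0.940, 1.17 and 1.71 FPKM in RNC-seq of Igf2bp3+/-, a difference of -2.28 ± 0.25 (adjusted p from limma = 2.23e-05), and -1.47 ± 0.25 in Igf2bp3-/- (adjusted p from limma = 0.00117). *Dnajc27*, a J protein with a Rab-like GTPase domain, measured 41.5, 44.4 and 45.9 FPKM and 11.6, 14.3 and 12.7 FPKM (-1.77 ± 0.18, adjusted p from limma = 1.47e-05), and *Dnajb4* stood at -1.28 ± 0.16 (adjusted p from limma = 5.17e-05). All 3 were lower in Igf2bp3-/- too. *Dnajb3*, the most abundant member, was only slightly lower in Igf2bp3+/- (-0.45 ± 0.17, adjusted p from limma = 0.0406), and this call was lost in 9 of 18 fits with a library or a replicate left out.

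Loading went with length. Spearman's correlation of loading with the longest annotated transcript was -0.59 in Igf2bp3+/- and -0.56 in Igf2bp3-/- over the 80 members, and -0.47 and -0.45 over the 17945 tested genes with a length. With the longest coding sequence it was -0.46 and -0.54 over 79 members, and -0.54 and -0.52 over 12858 genes. Only 69.8% of all tested genes had a coding length, so the latter values hold for genes with such a length and not for the whole table. By coding sequence, *Hspe1* (306 bases), *Dnajc24* (444) and *Dnajc19* (471) are among the shortest members, and *Hsp90b1* (2406) and *Hspa5* (1965) among the longer. *Dnajc27* (819) and *Dnajb4* (1011) were low with short coding sequences, but their longest transcripts have 4698 and 4913 bases. Those of *Hsp90b1* and *Hspa5* have 3222 and 3672 bases, and those of *Hspe1*, *Dnajc24* and *Dnajc19* have 964, 1197 and 2499. *Dnajc27* and *Dnajb4* thus depart from the trend by coding length and not by transcript length. Points share libraries, and genes are not independent replicates.

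**Figure D4:**
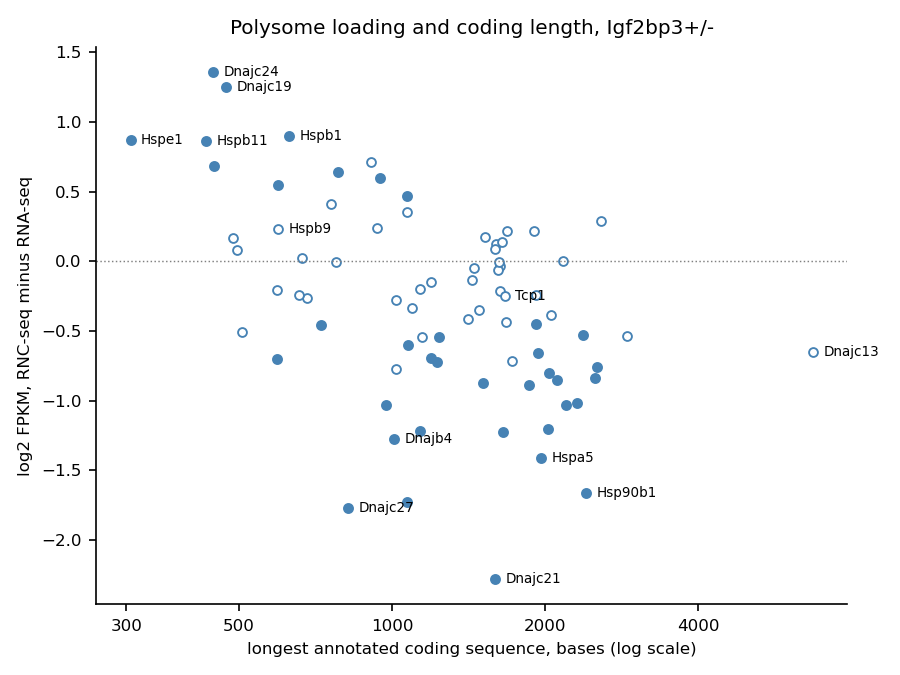
Polysome loading in Igf2bp3+/- (log2 FPKM, RNC-seq minus RNA-seq) against the longest annotated coding sequence in bases (log scale) for 79 members; filled points had an adjusted p below 0.05 in limma. Hspe1, Dnajc24 and Dnajc19 lie at the upper left, Hspa5 and Hsp90b1 at the lower right, and Dnajc27 and Dnajb4 low at 819 and 1011 bases.

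Whether loss of *Igf2bp3* changed chaperone RNA was asked within RNA-seq. With limma no member passed an adjusted p of 0.05 (background 0.256% of 20352 genes). At an unadjusted p below 0.05, 16 members (20%) were higher in Igf2bp3-/- (background 10.4%) and 2 lower (background 5.32%). All 3 Igf2bp3-/- libraries lay above all 3 Igf2bp3+/- libraries for 19 members (23.8%, background 14.1%) and below them for 2 (2.5%, background 8.68%). With an unadjusted p below 0.05 and a change over 1.5-fold, 2 members were called (background 5.45%). The median member stood at 0.08 and the median of all genes at 0.05, and rescaling without CT010467.1 took these to -0.04 and -0.07, so no direction can be read for the family.

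*Hspb1* (HSP27), a small HSP of many somatic cell types, had the smallest p. It measured 1.24, 1.31 and 1.43 FPKM in Igf2bp3+/- and 2.08, 2.68 and 2.30 FPKM in Igf2bp3-/-, groups that did not overlap, with a difference of 0.78 ± 0.16 (adjusted p from limma = 0.144). The summed levels of Leydig cell, Sertoli cell, macrophage and blood markers given above differed in the same direction, and their part in this value was not tested. In RNC-seq the groups overlapped, at 1.83, 3.29 and 2.77 FPKM and 3.98, 2.72 and 1.84 FPKM. *Hspb1* has a near-identical pseudogene.

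*Cct5* and *Cct6b*, subunits of the cytosolic chaperonin, had the next smallest p-values among the higher members. *Cct5* measured 246, 272 and 248 FPKM in Igf2bp3+/- and 288, 317 and 352 FPKM in Igf2bp3-/- (0.32 ± 0.10, adjusted p from limma = 0.209), and *Cct6b* 179, 190 and 177 FPKM and 210, 214 and 228 FPKM (0.25 ± 0.08, adjusted p from limma = 0.214). Neither pair of groups overlapped. In the whole group 9 of 10 members were above 0, 6 had an unadjusted p below 0.05, and the median was 0.21, or 0.05, 0.08 and 0.20 under the 3 scaling alternatives. In RNC-seq the group's median was -0.01, with 5 members on each side, and 9 of 10 below 0 under each scaling alternative.

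On the lower side, *Dnajc21* measured 7.05, 6.62 and 5.60 FPKM in Igf2bp3+/- and 5.03, 3.44 and 3.62 FPKM in Igf2bp3-/-, without overlap (-0.67 ± 0.17, adjusted p from limma = 0.169). *Hspa1a*, with the values given above, differed by -0.46 ± 0.20 with 1 overlapping library (adjusted p from limma = 0.313), and *Dnajc2* by -0.20 ± 0.10 (adjusted p from limma = 0.384). Differences for *Hspa2*, *Hspa1l*, *Hspa4l* and *Hspa8* were 0.20 ± 0.10, -0.11 ± 0.08, -0.03 ± 0.09 and 0.36 ± 0.13, with overlapping groups in each case.

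**Figure D5:**
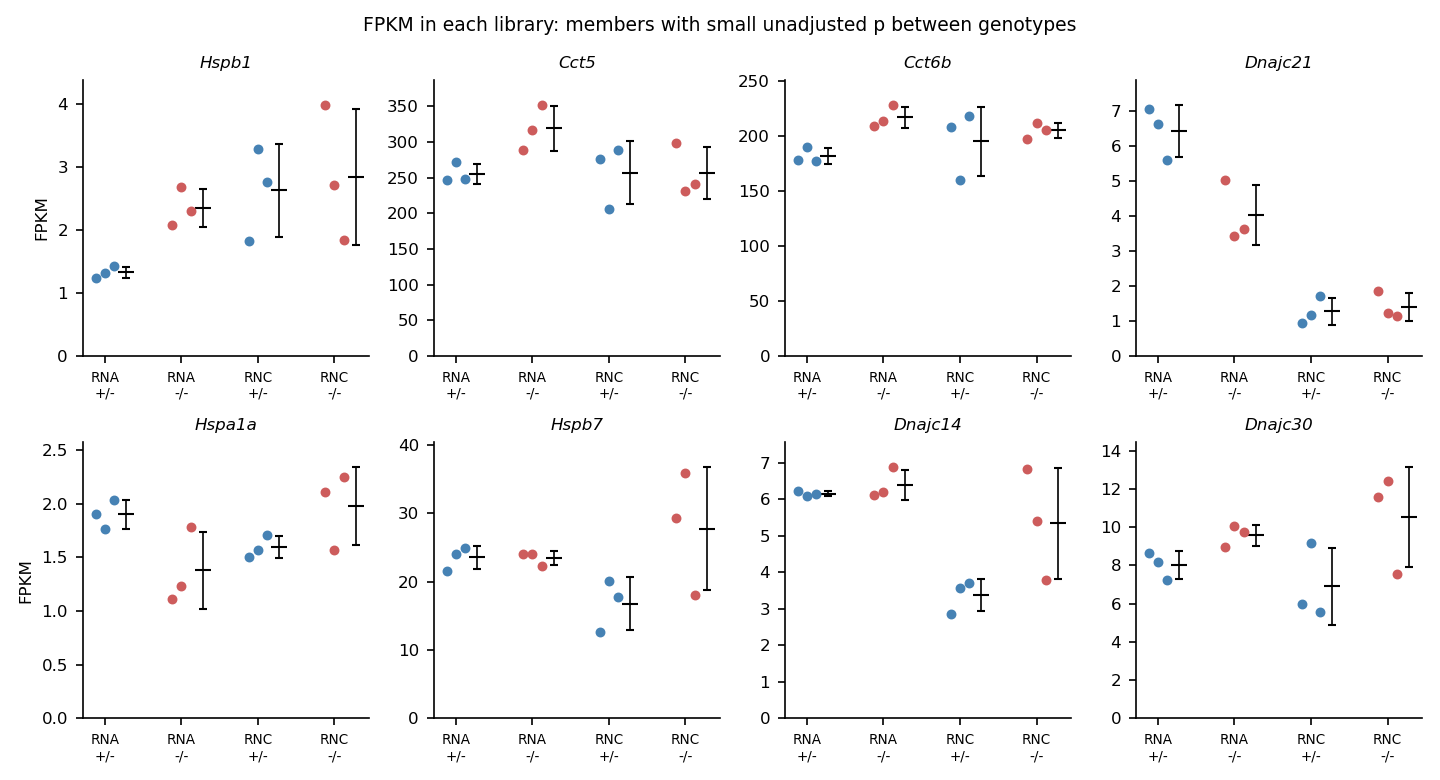
FPKM in each of the 12 libraries for 8 members with small unadjusted p between genotypes, with blue points for Igf2bp3+/-, red points for Igf2bp3-/-, and black marks for the mean and SD of 3 replicates; each panel has its own axis. Hspb1, Cct5, Cct6b, Dnajc21 and Dnajc30 separate the genotypes in RNA-seq, and of the 8 genes only Dnajc14 does so in RNC-seq.

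Within RNC-seq no member passed with limma (background 0.115% of 19051 genes), 4 had an unadjusted p below 0.05 and were higher (5.00%, background 5.36%), and none was lower (background 1.12%). Libraries were apart for 5 members, all higher (6.25%, background 9.44%), and for none that was lower (background 1.85%). All 4 also differed by over 1.5-fold (background of both directions 5.78%). The median was 0.08, against 0.13 for all genes, and went to between -0.05 and -0.03 under the scaling alternatives. *Hspb7* measured 12.6, 20.1 and 17.8 FPKM in Igf2bp3+/- and 29.3, 35.9 and 18.1 FPKM in Igf2bp3-/- (0.69 ± 0.28, adjusted p from limma = 0.756), with overlap. *Dnajc14*, which retains receptors in the ER, measured 2.86, 3.57 and 3.70 FPKM and 6.83, 5.41 and 3.79 FPKM (0.62 ± 0.27, adjusted p from limma = 0.763), without overlap, and 19.1% of its bases are overlapped on the opposite strand. *Dnajc30*, a J protein of mitochondria of which 26.2% is overlapped by *Bud23*, differed by 0.61 ± 0.28 (adjusted p from limma = 0.767). The smallest p-values on the lower side were those of *Dnajc2* (-0.37 ± 0.22), *Dnajc8* (-0.27 ± 0.24) and *Hspa2* (-0.23 ± 0.23). Some J proteins spread widely between the Igf2bp3-/- RNC-seq replicates, where *Dnajb2* was at 107, 94.0 and 54.5 FPKM and *Dnajb14* at 78.5, 58.1 and 32.9 FPKM, genes named after their values were seen. Over the 80 members, replicate 1 of that group was the highest for 65.0% and replicate 3 the lowest for 61.3%, against 40.1% and 38.7% of all genes.

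Translational efficiency, the ratio of RNC-seq to RNA-seq, was compared between genotypes as the interaction of genotype and assay. With limma no member passed (background 0.00543% of 18414 genes). At an unadjusted p below 0.05, 3 members (3.75%) were higher in Igf2bp3-/- (background 5.54%) and none lower (background 1.58%), and the same 3 differed by over 1.5-fold (background of both directions 6.55%). The median was -0.01, against 0.06 for all genes. The 3 were *Hspa1a* (0.74 ± 0.31, adjusted p from limma = 0.686), *Dnajc21* (0.81 ± 0.36, adjusted p from limma = 0.689) and *Hspb7* (0.69 ± 0.32, adjusted p from limma = 0.700). *Hspa1a* and *Dnajc21* combined a lower RNA-seq value in Igf2bp3-/- with RNC-seq values that overlapped between genotypes, 1.51, 1.57 and 1.71 against 2.11, 1.57 and 2.25 FPKM for *Hspa1a* and 0.940, 1.17 and 1.71 against 1.86, 1.22 and 1.13 FPKM for *Dnajc21*. On the lower side the smallest p-values were those of *Hspb1* (-0.69 ± 0.38), *Hspa2* (-0.43 ± 0.26) and *Cct8* (-0.34 ± 0.22). *Hspa1l* differed by 0.49 ± 0.23, *Hspa4l* by 0.00 ± 0.23 and *Hspa8* by -0.29 ± 0.28. With 3 replicates and standard errors of this size, smaller differences could not be resolved, and the absence of calls does not show that the genotypes were alike.

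Genes that work with these chaperones were taken from lists of heat-shock factors, HSP70 and HSP90 cofactors, prefoldin with chaperonin cofactors, and immediate early genes that mark stress during cell isolation. None of their 55 genes in the table passed in RNA-seq, RNC-seq or translational efficiency with limma, and at an unadjusted p below 0.05 in RNA-seq 16 were higher in Igf2bp3-/- (background 10.4%) and 2 lower (background 5.32%). The most abundant were *Hsbp1*, which binds the heat-shock factor HSF1 (348 FPKM on average), the nucleotide exchange factor *Bag5* (188 FPKM), the HSP90 immunophilin *Fkbp4* (271 FPKM), the phosducin-like *Pdcl2* (451 FPKM) and, in the stress list, *Dusp1* (7.38 FPKM). Loading differed widely between them. *Hsbp1* measured 336, 336 and 258 FPKM in RNA-seq and 1011, 844 and 785 FPKM in RNC-seq of Igf2bp3+/- (1.51 ± 0.16, adjusted p from limma = 1.93e-05), whereas *Bag5* was lower in RNC-seq (-1.84 ± 0.18, adjusted p from limma = 1.07e-05) and *Fkbp4* too (-0.62 ± 0.18, adjusted p from limma = 0.0115). The same 3 passed in the same direction in Igf2bp3-/-. The 8 stress genes summed to 12.1 to 13.9 FPKM in Igf2bp3+/- and 13.1 to 15.4 FPKM in Igf2bp3-/- RNA-seq, and to 3.86 to 5.99 and 5.72 to 13.3 FPKM in RNC-seq. In RNC-seq the difference of Igf2bp3-/- from Igf2bp3+/- was above 0 for all 6 of them that were tested, 3 of which had an unadjusted p below 0.05 (background 5.36%). Their part in the values of the members was not tested.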

How the data were processed

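The deposited table held FPKM per gene symbol for 12 libraries, made by the authors from reads aligned to GRCm38 (mm10), and its columns named WT are Igf2bp3+/-. The submitters' processing notes name CASAVA 1.8, Trim Galore 0.6.6, HISAT2 without a version and StringTie 2.1.7. Poly(A) RNA went into a directional kit on a HiSeq X10 per the labels, whereas the study's methods describe a different full-length protocol and instrument, so that the library type is uncertain, and the use of strand by the quantification is not given in the sources used here. No read counts are in the table, so depth is unknown and no counting interval could be given. All value columns were used.

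Symbols altered to dates (25, with 0.0995% of the summed FPKM) were left out, and 27839 of the 28643 others matched GENCODE M21. Genes with a mean above 0.1 FPKM over the libraries of a fit were tested on log2(FPKM + 0.1), which understates changes of low genes, with limma 3.58.1 in R 4.3.3 (trended variance) and Benjamini-Hochberg adjustment over all genes. Genotype was tested over the 6 libraries of an assay, and loading and translational efficiency over all 12. A call had an adjusted p below 0.05. The scripts were tested on simulated data. Pseudocount, filter, scaling, block, variance trend, call rule and left-out libraries were varied.

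Members and lists were chosen with earlier results of these data known. Named were 6 HSP70 and HSP110 genes, the 3 most abundant members of each family, the 3 smallest p-values in each direction of a genotype comparison, the 5 highest and lowest loadings (all with a mean of at least 1 FPKM), and the most abundant gene of each further list; others were named after their values were seen. Near-identical copies were transcripts with at least 95% identity over 50% of the length in BLAST 2.17.0, found for 7 members, and 28 members had at least 1% of their exonic bases overlapped on the opposite strand. RNA-seq and RNC-seq libraries of one number deviated from their group means with correlations of -0.105 to 0.262 over 11389 genes. Each extract gave both assays, but these correlations cannot show whether equal numbers mark the same extract. The main fits did not pair libraries, and a block by replicate number was run as an alternative.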

Additional observations from a re-analysis of the deposited data

How the results depend on the processing

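No member passed in the 3 genotype comparisons under any alternative pseudocount, filter, scaling, variance trend or fit, nor with any library or replicate left out (0 to 0 members in RNA-seq, RNC-seq and translational efficiency). With an unadjusted p below 0.05 and a change over 1.5-fold as the rule, 2 members were called in RNA-seq, 4 in RNC-seq and 3 in translational efficiency. Without a test, 8 members had ratios of mean RNC-seq to mean RNA-seq FPKM over 1.5-fold apart between genotypes. The share of all genes with such ratios was not taken, so this count cannot be set against a background. Polysome loading called 25 to 41 members in Igf2bp3+/- (37 with all libraries) and 14 to 29 in Igf2bp3-/- (26 with all libraries) when a library or a replicate was left out. The Igf2bp3-/- count was 14 without RNA-seq replicate 1, 15 without RNA-seq replicate 2, 16 without RNC-seq replicate 3 and 14 without replicate 3 of both assays, fits that held fewer samples. Calls were kept in all 18 such fits for 21 of the 37 and 9 of the 26. With the replicate number as a block the counts were 0, 0 and 0 in the genotype comparisons and 35 and 22 for loading. The replicate numbers were not shown to pair the libraries. Among all tested members, none of the 37 and 26 called for loading changed sign under any alternative. Members that were not called did: 19 and 10 for loading under the 3 scaling alternatives, and 27, 45 and 36 in RNA-seq, RNC-seq and translational efficiency with a library or a replicate left out. Of members with a printed value, loading in Igf2bp3+/- turned under quantile normalization and under rescaling without CT010467.1 to -0.0236 and -0.20 for *Dnajb9*, -0.0075 and -0.22 for *Hsp90ab1*, and -0.17 and -0.0081 for *Hspa2*. In Igf2bp3-/- it turned to -0.0325 and -0.19 for *Hspa1l*, and to -0.0076 for *Hsph1* under the rescaling. Translational efficiency of *Hspa4l* turned to -0.13 with centred libraries. With a library or a replicate left out, *Hspa4l* ranged from -0.0796 to 0.0251 in RNA-seq and from -0.19 to 0.16 in translational efficiency. Loading then ranged from -0.0740 to 0.14 for *Dnajb9* and -0.0937 to 0.10 for *Hsp90ab1* in Igf2bp3+/-, and from -0.23 to 0.0454 for *Dnajb9*, -0.15 to 0.20 for *Hspa1l* and -0.45 to 0.0028 for *Hspa2* in Igf2bp3-/-. The absence of read counts limits what can be said of members near 0.1 FPKM.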
